A study of Mus musculus with 19 samples.

Results

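The genes described here are the 4 MiT-TFE transcription factors Mitf, Tfeb, Tfe3 and Tfec, together with Flcn and Fnip1, whose proteins control where those factors sit in the cell. They were chosen by symbol, and all 6 were found among the 33919 gene identifiers of the series. Their RNA was followed in 19 libraries of Kupffer cells (macrophages resident in the liver) that had been sorted from C57BL/6 females. Chow_EmKCs (n = 6) were embryo-derived Kupffer cells of chow-fed mice, MCD_EmKCs (n = 6) were embryo-derived Kupffer cells of mice kept for 4 weeks on a methionine- and choline-deficient (MCD) diet, and MCD_MoKCs (n = 7) were monocyte-derived Kupffer cells on the same diet. The mice of all 3 groups were wild type. Origin was assigned by the sort and not by lineage tracing: cells positive for both CLEC2 and TIMD4 were taken as EmKCs, and CLEC2-positive cells without TIMD4 as MoKCs. There was no group of monocyte-derived cells on chow, so the effect of origin can be read only within the MCD diet. The MCD diet is widely used to model steatohepatitis.

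The MiT-TFE factors are basic helix-loop-helix leucine zipper proteins that bind E-box sequences, among them the CLEAR element found in front of many lysosomal and autophagy genes. In fed cells the kinase complex mTORC1 phosphorylates TFEB and TFE3 on the lysosomal surface, which holds them in the cytoplasm. This step needs the RagC and RagD GTPases, and folliculin (Flcn), working with its partner Fnip1 or Fnip2, is the GTPase-activating protein for them. When mTORC1 is off, or when calcium leaves the lysosome through the channel mucolipin 1 (Mcoln1) and activates the phosphatase calcineurin, the factors move to the nucleus. In macrophages and osteoclasts they are known for driving lysosome formation, phagocytic digestion and genes such as Gpnmb, Ctsk and Acp5. Because activity is set largely by phosphorylation and location, the RNA of a factor and its activity are different quantities, and only RNA was measured here.

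Promoter sequence shows which of these genes carry the letters the factors bind. The windows are RefSeq sequence on mm10 (GRCm38.p6), from 250 bases before to 50 bases after the annotated start, 300 bases each, written 5′ to 3′ on the strand of the gene. Capitals mark CACGTG, the E-box core, which reads the same on both strands. Fnip1 is shown as the only one of the 6 genes with that core (chr11:54437929-54438228, plus strand), and Mcoln1 because it carries 2 cores (chr8:3500269-3500568, plus strand). Fnip2 (chr3:79567630-79567929, minus strand) and Gpnmb (chr6:49036268-49036567, plus strand) are shown because their RNA differed between groups and neither window holds the core. Other genes called below do carry it, among them Gla, Ctsd, Naglu, Clcn7, Ctsf and Rragc. The windows printed here therefore do not show how the core relates to a change in RNA.
Fnip1: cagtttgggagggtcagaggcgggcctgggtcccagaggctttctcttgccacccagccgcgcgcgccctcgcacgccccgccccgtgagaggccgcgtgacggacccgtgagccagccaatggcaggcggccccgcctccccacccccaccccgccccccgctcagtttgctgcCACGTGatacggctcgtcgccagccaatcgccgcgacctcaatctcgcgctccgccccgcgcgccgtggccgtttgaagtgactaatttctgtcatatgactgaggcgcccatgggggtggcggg
Mcoln1: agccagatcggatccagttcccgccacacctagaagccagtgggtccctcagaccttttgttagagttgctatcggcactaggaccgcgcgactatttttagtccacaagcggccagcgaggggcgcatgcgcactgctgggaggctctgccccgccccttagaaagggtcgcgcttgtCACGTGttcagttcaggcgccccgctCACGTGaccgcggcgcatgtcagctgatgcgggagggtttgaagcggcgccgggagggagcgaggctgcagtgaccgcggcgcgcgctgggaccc
Fnip2: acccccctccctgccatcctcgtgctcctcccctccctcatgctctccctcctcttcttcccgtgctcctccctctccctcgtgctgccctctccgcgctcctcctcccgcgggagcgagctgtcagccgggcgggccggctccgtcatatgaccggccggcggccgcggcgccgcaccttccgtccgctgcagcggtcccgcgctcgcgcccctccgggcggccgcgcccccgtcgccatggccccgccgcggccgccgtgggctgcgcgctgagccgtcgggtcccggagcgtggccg
Gpnmb: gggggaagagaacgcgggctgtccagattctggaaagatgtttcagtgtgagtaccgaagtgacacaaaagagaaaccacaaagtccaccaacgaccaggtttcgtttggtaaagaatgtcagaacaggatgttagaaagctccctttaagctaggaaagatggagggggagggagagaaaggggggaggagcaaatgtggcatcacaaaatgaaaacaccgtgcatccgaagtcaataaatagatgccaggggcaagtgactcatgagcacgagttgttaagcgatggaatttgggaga
The core in Fnip1 began 75 bases before the start site, and those in Mcoln1 began 71 and 45 bases before it. The 6 genes had 11 annotated start sites (3 for Mitf, 3 for Tfeb, 2 for Tfe3 and 1 each for Tfec, Flcn and Fnip1), and 1 of the 11 windows held CACGTG, against 7.15% of all 32851 windows. CATGTG, the core of the M-box bound by Mitf, was searched on both strands (as CATGTG or CACATG) and was in 0 of the 11 windows, against 14.2% of all windows. These matches are a description of the letters in each window. Reads were summed per gene, so RNA from the several start sites of Mitf, Tfeb and Tfe3 was not separated.

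Total reads ranged from 11642240 to 30983487 per library, and 14643 to 16847 genes had at least 1 read. The 12 Kupffer cell markers summed to 501414 to 605156 normalised reads in Chow_EmKCs, 447624 to 497662 in MCD_EmKCs and 157045 to 209378 in MCD_MoKCs. All groups expressed genes of the labelled cell type, at a lower summed level in MCD_EmKCs than in Chow_EmKCs and at the lowest in the monocyte-derived cells. In MCD_EmKCs against Chow_EmKCs, 1 of the 12 was called higher and 4 lower, where 2.50 and 1.58% of all genes were. Timd4 and Clec1b, which encode TIMD4 and CLEC2, are among the 12. That part of the sum is tied to the sort and is no independent check of it. The 8 monocyte markers summed to 6595 to 12231 in MCD_MoKCs and to at most 2927 elsewhere. Mast cells, basophils and melanocytes are known to use Mitf. Of 10 mast cell and basophil markers 6 were at 0 in all libraries (Mcpt4, Mcpt8, Tpsb2, Tpsab1, Fcer1a and Ms4a2), and the 10 summed to 73.6 to 334, 109 to 286 and 68.9 to 1002 in Chow_EmKCs, MCD_EmKCs and MCD_MoKCs. The melanocyte genes Tyr, Tyrp1 and Mlana were at 0 in all libraries. All 6 melanocyte markers summed to 0 to 73.2, 0 to 66.0 and 2.22 to 48.4 in the same group order. Only 1 of the 6 had enough reads to be tested, and it was not called in any comparison. Hepatocyte markers summed to 4147 to 11330 in Chow_EmKCs, 607 to 2961 in MCD_EmKCs and 362 to 1130 in MCD_MoKCs, and the mitochondrial share of reads was 0.511 to 1.05%, 0.155 to 0.317% and 0.244 to 0.729%. Sinusoidal endothelial markers summed to 7181 to 9338, 7040 to 9853 and 2939 to 13087. In MCD_MoKCs against Chow_EmKCs, 6 of these 9 were called higher and 2 lower, where 8.68 and 8.08% of all genes were. T and NK cell markers summed to 149 to 242, 239 to 537 and 1009.8 to 1583, with the embryo-derived groups overlapping and MCD_MoKCs above both. Platelet markers summed to 203 to 651, 913 to 1525 and 1596 to 4621, with the 3 groups apart. Neutrophil markers reached 151, 218 and 2203, and cholangiocyte markers 82.9, 566 and 7323. Of 6 markers each, 2 cholangiocyte and 3 platelet markers had enough reads to be tested. The only ones called were Spp1 of the cholangiocyte list, higher in MCD_MoKCs than in either other group, and Pf4 and Treml1 of the platelet list. Pf4 and Treml1 were called higher in MCD_EmKCs and in MCD_MoKCs than in Chow_EmKCs, where 2.50 and 8.68% of all genes were. Between the MCD groups only Pf4 was called, higher in MCD_MoKCs, where 5.64% of all genes were called higher. Which cells this RNA came from was not tested. Genes known to respond to tissue digestion and sorting summed to 394114 to 561779 in Chow_EmKCs, 572536 to 807785 in MCD_EmKCs and 429124 to 639671 in MCD_MoKCs. Within MCD_MoKCs, libraries 1 to 3 stood apart, with 0.534 to 0.729% mitochondrial reads against 0.244 to 0.359% in libraries 4 to 7. The part of these differences in the results was not tested. In bulk RNA, fewer cells of a type and less RNA per cell cannot be told apart, and the sources do not tie libraries to animals, so p-values here reflect the spread between libraries.

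None of the 6 genes passed the test in any comparison. In MCD_EmKCs against Chow_EmKCs, 0 of 6 were called by limma (adjusted p under 0.05 over 14875 genes), where 4.08% of all genes tested were called (372 higher and 235 lower, or 248 and 282 with libraries scaled to their totals). In MCD_MoKCs against MCD_EmKCs, 0 of 6 were called, where 10.5% of all genes were (1568). In MCD_MoKCs against Chow_EmKCs, 0 of 6 were called, where 16.8% were (2493). With 6 genes, a count of 0 is not far from those shares. At an unadjusted p under 0.05, limma gave 1 gene (Fnip1), 0 genes and 1 gene (Tfec) in the 3 comparisons, and edgeR and DESeq2 on the recovered reads also called 0 of 6 in each. Each comparison shares a group with each of the others, so their values are not independent. Values below are normalised reads (deposited reads divided by 1 size factor per library), and each difference is on the scale of log2(value + 1).

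**Figure D1:**
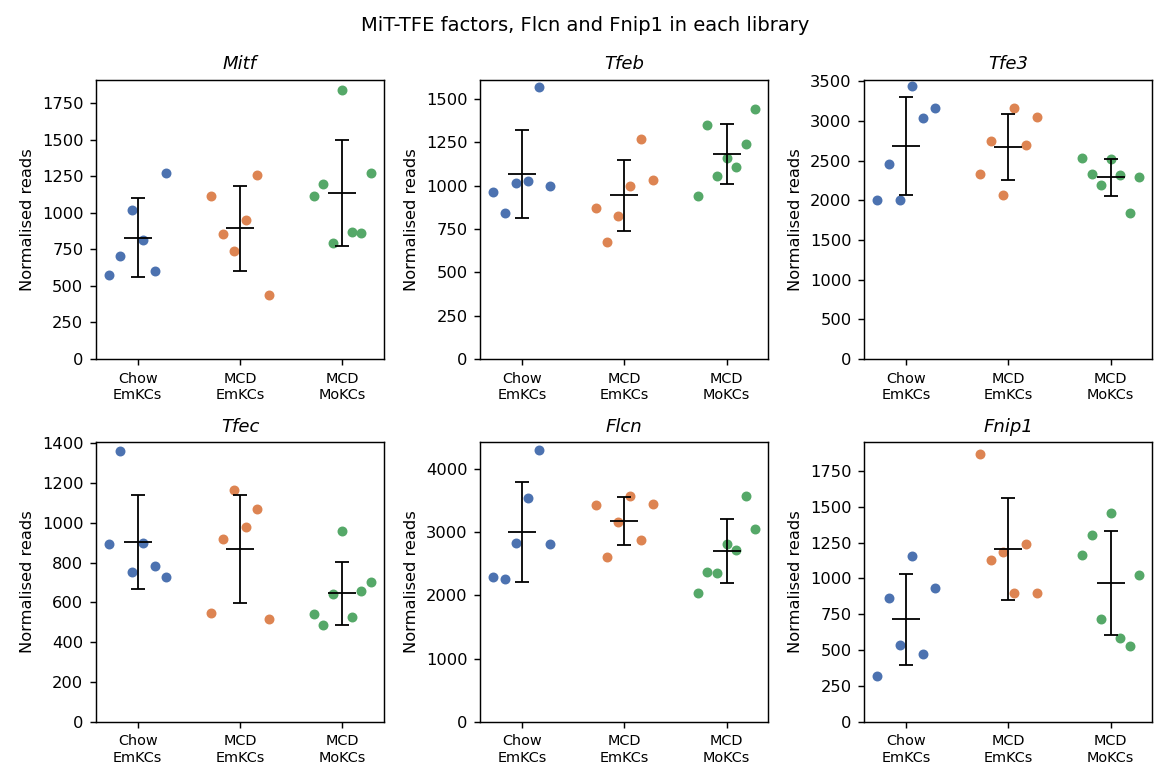
Normalised reads of each of the 6 genes (vertical axis, linear, from 0) in every library, grouped as Chow_EmKCs, MCD_EmKCs and MCD_MoKCs. Each dot is 1 library, and the bar with caps gives the group mean and SD. The groups overlapped for all 6 genes.

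Tfe3, the X-linked family member (ENSMUSG00000000134, chrX:7762560-7775202, plus strand, mm10), had 2007, 2750.1 and 3440 normalised reads in Chow_EmKCs (lowest, median and highest library), 2063, 2721 and 3165 in MCD_EmKCs, and 1838, 2318 and 2533 in MCD_MoKCs. Its level was the steadiest of the family among the monocyte-derived libraries, with a coefficient of variation of 10.2%. The difference of MCD_EmKCs from Chow_EmKCs was 0.01 (SE 0.16, 95% interval -0.32 to 0.34, limma adjusted p = 0.986). MCD_MoKCs differed by -0.21 (SE 0.15, interval -0.53 to 0.10, limma adjusted p = 0.444) from MCD_EmKCs and by -0.20 (SE 0.15, interval -0.52 to 0.11, limma adjusted p = 0.433) from Chow_EmKCs.

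Tfeb, the factor most studied in lysosome formation (ENSMUSG00000023990, chr17:47737030-47792419, plus strand), had 843, 1009 and 1568 normalised reads in Chow_EmKCs, 677, 935 and 1269 in MCD_EmKCs, and 941, 1162 and 1442 in MCD_MoKCs. The ranges overlapped throughout, and 2 of 7 MCD_MoKCs libraries lay above every MCD_EmKCs library. The differences were -0.18 (SE 0.19, interval -0.56 to 0.21, limma adjusted p = 0.701) for MCD_EmKCs against Chow_EmKCs, 0.34 (SE 0.18, interval -0.03 to 0.71, adjusted p = 0.262) for MCD_MoKCs against MCD_EmKCs and 0.16 (SE 0.18, interval -0.21 to 0.53, adjusted p = 0.615) for MCD_MoKCs against Chow_EmKCs.

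Mitf, the family member that specifies melanocytes and matures mast cells and osteoclasts (ENSMUSG00000035158, chr6:97807052-98021349, plus strand), had 573, 759 and 1274 normalised reads in Chow_EmKCs, 436, 905 and 1258 in MCD_EmKCs, and 794, 1112 and 1839 in MCD_MoKCs. The MCD_MoKCs libraries reached highest, with 2 of 7 above every MCD_EmKCs library, but the ranges overlapped. MCD_EmKCs differed from Chow_EmKCs by 0.09 (SE 0.26, interval -0.44 to 0.62, limma adjusted p = 0.914). For MCD_MoKCs the difference was 0.37 (SE 0.25, interval -0.14 to 0.88, limma adjusted p = 0.409) from MCD_EmKCs and 0.45 (SE 0.25, interval -0.06 to 0.96, adjusted p = 0.241) from Chow_EmKCs.

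Tfec, the family member expressed mainly in macrophages (ENSMUSG00000029553, chr6:16833373-16898441, minus strand), had 729.7, 838 and 1359.8 normalised reads in Chow_EmKCs, 518, 949 and 1166 in MCD_EmKCs, and 488, 644 and 959 in MCD_MoKCs. Of the 7 MCD_MoKCs libraries, 6 lay below every Chow_EmKCs library, and the highest lay among them. The difference from Chow_EmKCs was -0.48 (SE 0.23, interval -0.95 to -0.02), with an unadjusted p of 0.0415 and a limma adjusted p of 0.158, which did not pass. From MCD_EmKCs it was -0.39 (SE 0.23, interval -0.85 to 0.07, limma adjusted p = 0.320), and MCD_EmKCs differed from Chow_EmKCs by -0.09 (SE 0.23, interval -0.58 to 0.39, adjusted p = 0.894).

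**Figure D2:**
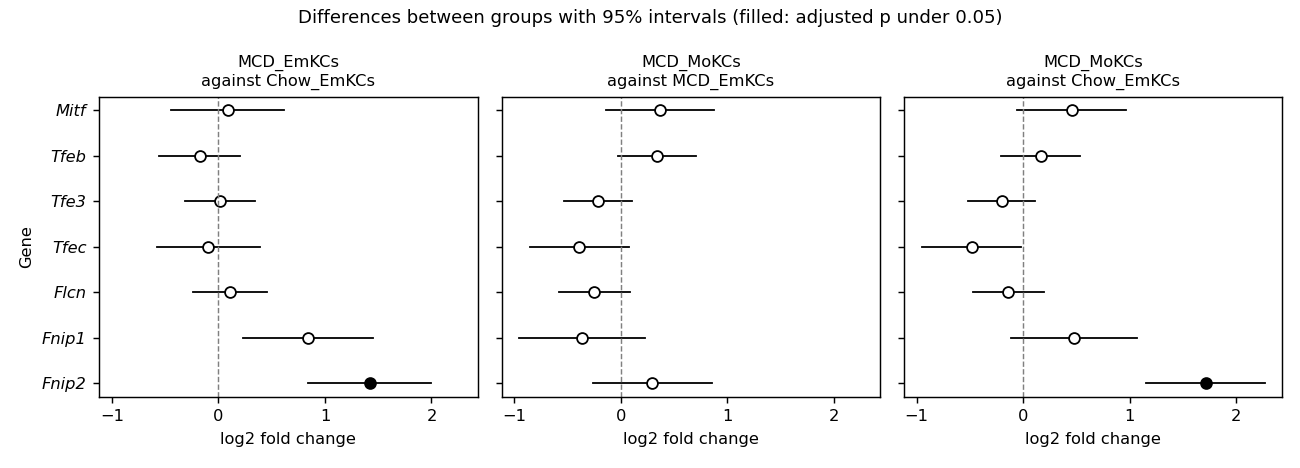
Log2 difference (horizontal axis) of the 6 genes and Fnip2 in the 3 comparisons, with 95% intervals. Filled points had a limma adjusted p under 0.05: only Fnip2 did, in MCD_EmKCs and in MCD_MoKCs, each against Chow_EmKCs.

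Dividing by exon length puts genes of different length on a common scale. The length used was the union of all annotated exons of a gene, 9261 bases for Tfe3 and 4322 for Flcn. It can exceed the length of the RNA present, so the order of genes and their shares depend on it. On that scale (normalised reads per kb of exon, medians), the order of the 4 factors was Tfe3 297, Tfeb 178, Tfec 149.9 and Mitf 123 in Chow_EmKCs. In MCD_EmKCs it was Tfe3 294, Tfec 169.7, Tfeb 165 and Mitf 146. In MCD_MoKCs it was Tfe3 250.3, Tfeb 205, Mitf 179 and Tfec 115. The ranges of neighbours in each order overlapped, except that Tfe3 (223 to 342) lay above Tfec (92.5 to 208) in MCD_EmKCs. Fnip1 had medians of 98.3, 163 and 144 on the same scale. Tfe3 was the highest of the 4 factors in 16 of 19 libraries, and the other 3 libraries, all MCD_MoKCs, were led by Tfeb (2) or Mitf (1). The order of Mitf and Tfec differed between libraries of the groups. Within a library, Mitf over Tfec per kb ranged from 0.470 to 1.58 (median 0.755) in Chow_EmKCs, from 0.574 to 1.83 (median 0.860) in MCD_EmKCs, and from 1.11 to 2.22 (median 1.63) in MCD_MoKCs. Mitf exceeded Tfec in 2 of 6, 2 of 6 and 7 of 7 libraries, and Tfec was the lowest of the 4 in all 7 MCD_MoKCs libraries, against 2 of 6 in each embryo-derived group. This ratio was picked after the values were seen and was not tested, and the ranges overlap between the groups.

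**Figure D3:**
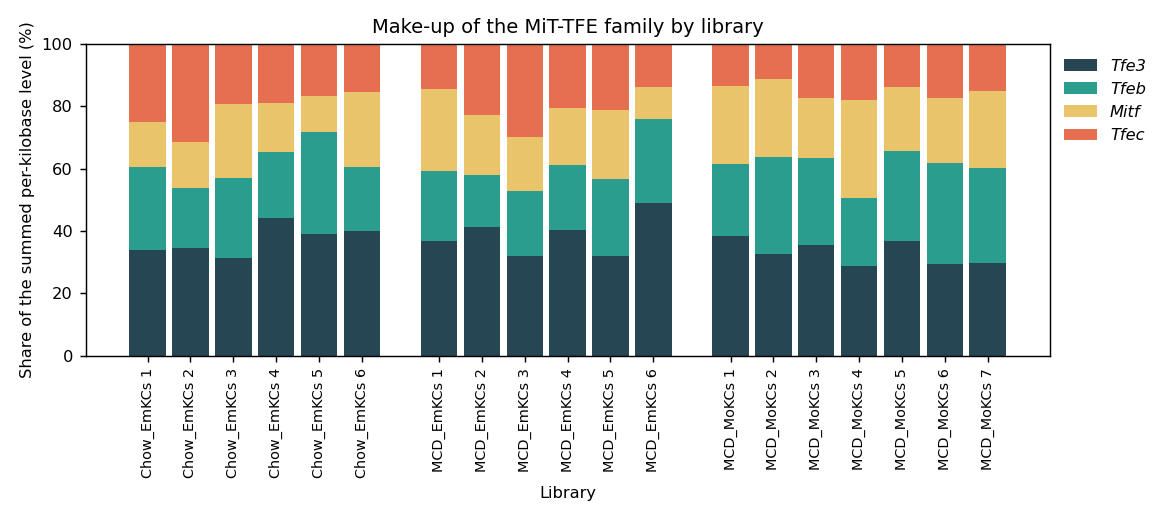
Percent of the summed per-kb level of the 4 MiT-TFE factors contributed by Tfe3, Tfeb, Mitf and Tfec (stacked, vertical axis 0 to 100%) in each of the 19 libraries. Median Mitf shares were 15.2, 18.7 and 24.6% in Chow_EmKCs, MCD_EmKCs and MCD_MoKCs, and median Tfec shares were 19.2, 20.8 and 15.1%.

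Shares of the family total give the same values without the overall level of a library. Tfe3 contributed a median of 36.7% in Chow_EmKCs, 38.6% in MCD_EmKCs and 32.7% in MCD_MoKCs. Tfeb contributed 23.6, 21.7 and 28.7% in the same order. Shares of a total are not independent of each other, since a higher share of 1 factor lowers the others.

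Flcn, the GTPase-activating protein for RagC and RagD (ENSMUSG00000032633, chr11:59791408-59810016, minus strand), had 2257, 2819.8 and 4306 normalised reads in Chow_EmKCs, 2602, 3293 and 3567 in MCD_EmKCs, and 2035, 2719 and 3577 in MCD_MoKCs. Its level per kb of exon was the highest of the 6 genes in 19 of 19 libraries, with medians of 652, 762 and 629. On that scale no Flcn value fell within the Tfe3 range. Before division by length, the Flcn and Tfe3 ranges overlapped in every group, so this order depends on the exon lengths used. The differences were 0.11 (SE 0.17, interval -0.23 to 0.46, limma adjusted p = 0.813) for MCD_EmKCs against Chow_EmKCs, -0.25 (SE 0.16, interval -0.58 to 0.08, adjusted p = 0.389) for MCD_MoKCs against MCD_EmKCs and -0.14 (SE 0.16, interval -0.47 to 0.19, adjusted p = 0.641) for MCD_MoKCs against Chow_EmKCs.

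Fnip1, which binds folliculin and carries it to the lysosome (ENSMUSG00000035992, chr11:54438199-54518235, plus strand), had 321, 699.8 and 1154.5 normalised reads in Chow_EmKCs, 896, 1157 and 1871 in MCD_EmKCs, and 528, 1022 and 1454 in MCD_MoKCs. It varied most among the 6 genes within Chow_EmKCs, with a coefficient of variation of 44.7%, and 3 of 6 MCD_EmKCs libraries lay above every Chow_EmKCs library. Fnip1 gave the largest difference of the 6 in any comparison, 0.84 for MCD_EmKCs against Chow_EmKCs (SE 0.30, interval 0.23 to 1.45, a fold of 1.79), with an unadjusted p of 0.00911 and a limma adjusted p of 0.124. It did not pass the test, and its size moved with the libraries used: it was 1.36 among libraries numbered up to 33 and 0.32 among those numbered from 37. On leaving out 1 library it ranged from 0.64 (without Chow_EmKCs 1) to 1.01 (without Chow_EmKCs 4). MCD_MoKCs differed from MCD_EmKCs by -0.37 (SE 0.29, interval -0.96 to 0.22, limma adjusted p = 0.490) and from Chow_EmKCs by 0.47 (SE 0.29, interval -0.12 to 1.07, adjusted p = 0.301), and the latter was 0.89 and -0.12 in the same library sets.

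Fnip2, the paralog of Fnip1 and the other partner of folliculin (ENSMUSG00000061175, chr3:79455974-79567796, minus strand), did rise. It had 257, 579 and 827 normalised reads in Chow_EmKCs, 1053, 1257 and 2034 in MCD_EmKCs, and 1129.6, 1652 and 2587 in MCD_MoKCs. Every library of both MCD groups lay above every Chow_EmKCs library, and the MCD groups overlapped each other. The rise over Chow_EmKCs was 1.42 in MCD_EmKCs (SE 0.28, limma adjusted p = 0.00281, ratio of means 2.56) and 1.71 in MCD_MoKCs (SE 0.27, limma adjusted p = 3.93e-05, ratio of means 3.19). Between the MCD groups the difference was 0.29 (SE 0.27, limma adjusted p = 0.572). Among libraries numbered from 37 alone, the MCD_EmKCs difference was 1.07 with a limma adjusted p of 0.114, and the other 32 of 33 alternative settings kept that call.

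The order of the partners of folliculin differed between libraries of the groups. Per kb of exon and within a library, Fnip2 over Fnip1 ranged from 0.552 to 0.924 (median 0.658) in Chow_EmKCs, from 0.755 to 1.32 (median 1.05) in MCD_EmKCs, and from 0.769 to 2.42 (median 1.85) in MCD_MoKCs. Fnip2 exceeded Fnip1 in 0 of 6, 3 of 6 and 6 of 7 libraries. The ranges overlap and the ratio, chosen after the values were seen, was not tested. Across the 19 libraries, deviations from the group means were correlated for 21 pairs among the 6 genes and Fnip2, with Pearson r from -0.17 to 0.73 and a median of 0.15. The 3 highest were picked from these after they were seen. Deviations from the group means of Fnip1 and Fnip2 had an r of 0.73 (Spearman 0.65), those of Mitf and Fnip1 an r of 0.64 (Spearman 0.70) and those of Tfeb and Flcn an r of 0.63 (Spearman 0.66). Without the 2 farthest libraries (17 left) r was 0.60, 0.61 and 0.66. These are descriptions of values that share a library, its depth and its scaling.

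**Figure D4:**
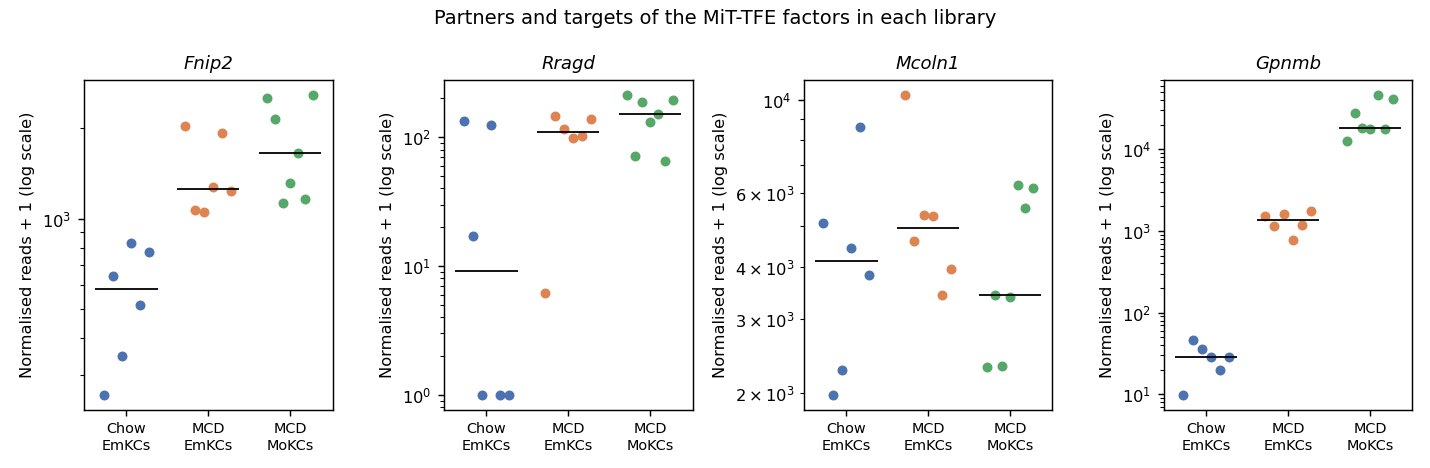
Normalised reads + 1 (vertical axis, log scale) of Fnip2, Rragd, Mcoln1 and Gpnmb in every library by group. Each dot is 1 library and each horizontal line a group median. The Fnip2 and Gpnmb libraries of both MCD groups lay above all Chow_EmKCs libraries, whereas the Mcoln1 groups overlapped.

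Rragd encodes RagD, a GTPase through which folliculin directs mTORC1 to TFEB and TFE3, and is itself a known MiT-TFE target (ENSMUSG00000028278, chr4:32983037-33022180, plus strand). Its normalised reads in Chow_EmKCs libraries 1 to 6 were 131.6, 16.1, 0, 123.7, 0 and 0. In MCD_EmKCs libraries 1 to 6 they were 5.17, 144.6, 115, 97.7, 100.3 and 137, and in MCD_MoKCs libraries 1 to 7 they were 213, 70.5, 188, 131, 150.2, 63.9 and 195. The RNA was low everywhere and on or off in chow libraries, and the ranges overlapped. MCD_MoKCs exceeded Chow_EmKCs by 4.04 (SE 1.08, limma adjusted p = 0.00949), with 3 of the 6 chow libraries at 0, and the ratio of means was 3.19. By edgeR it was 1.65 (adjusted p = 0.318) and by DESeq2 1.67 (adjusted p = 0.224), so the call depended on the test used. It was also lost within either library set and without MCD_MoKCs 1 to 3 (limma adjusted p = 0.0549). MCD_EmKCs differed from Chow_EmKCs by 3.16 (SE 1.12, limma adjusted p = 0.127), and MCD_MoKCs differed from MCD_EmKCs by 0.87 (SE 1.08, adjusted p = 0.692). The first of these was called on leaving out Chow_EmKCs 1 (3.97), Chow_EmKCs 4 (3.95) or MCD_EmKCs 1 (3.87).

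Of 30 genes tested in the nutrient-sensing list (mTORC1, the Rag GTPases, their regulators and sestrins), 2 rose and 1 fell in MCD_EmKCs against Chow_EmKCs, with 27 not called. The list's median difference was 0.07 against -0.04 for all genes, and in this comparison 2.50% of all genes were called higher and 1.58% lower. On leaving out 1 library the number called ran from 1 (without Chow_EmKCs 3, 5 or 6 or MCD_EmKCs 2 or 4) to 6 (without Chow_EmKCs 4). Besides Fnip2, Rragc rose by 0.64 (limma adjusted p = 0.0443). Rragc encodes RagC, the close relative of RagD, and its call held in 13 of 33 alternative settings, being lost in 14 of the 19 models that left out 1 library (it held without Chow_EmKCs 2, Chow_EmKCs 4, MCD_EmKCs 1, MCD_MoKCs 1 or MCD_MoKCs 6). Sesn2, a leucine sensor that restrains mTORC1, fell by 0.75 (limma adjusted p = 0.0328), and that call was lost on leaving out any of Chow_EmKCs 1, 3, 5 and 6 and MCD_EmKCs 2, 3, 4 and 6.

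In MCD_MoKCs against Chow_EmKCs, 2 of the 30 rose (Rragd and Fnip2) and 3 fell, with a median of 0.18 against -0.01 for all genes and 8.68 and 8.08% of all genes called higher and lower. Sesn2 had 1127, 1471 and 1925 normalised reads in Chow_EmKCs and 441, 759.7 and 1081 in MCD_MoKCs, so the groups lay apart. It fell by 1.01 (limma adjusted p = 0.000440). Mlst8, a core subunit of both mTOR complexes, fell by 1.41 (limma adjusted p = 0.00461), and Mtor, the kinase itself, fell by 0.61 (limma adjusted p = 0.0412) with 17 of 33 alternative settings keeping the call (lost without Chow_EmKCs 1, 2, 4 or 5, or MCD_MoKCs 1, 2, 3, 4 or 6, and without MCD_MoKCs 1 to 3 together). In MCD_MoKCs against MCD_EmKCs, 1 of 30 rose and 1 fell (5.64 and 4.90% of all genes), with a median of 0.04 against 0.02. Mtor fell by 0.69 (limma adjusted p = 0.0293; lost without MCD_EmKCs 2, 3 or 6, or MCD_MoKCs 2 or 3, and without MCD_MoKCs 1 to 3 together). Sesn3, another sestrin, passed the test with 0 reads in all 6 MCD_EmKCs libraries and at most 74.7 normalised reads in MCD_MoKCs, too few for a fold.

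Mcoln1, the lysosomal calcium channel whose window carries 2 E-box cores (ENSMUSG00000004567, chr8:3500457-3515232, plus strand), had 1975, 4113 and 8630.0 normalised reads in Chow_EmKCs, 3428, 4937 and 10289 in MCD_EmKCs, and 2306, 3427 and 6265 in MCD_MoKCs. The ranges overlapped and were wide. The differences were 0.41 (SE 0.35, limma adjusted p = 0.628) for MCD_EmKCs against Chow_EmKCs, -0.40 (SE 0.34, adjusted p = 0.528) for MCD_MoKCs against MCD_EmKCs and 0.01 (SE 0.34, adjusted p = 0.991) for MCD_MoKCs against Chow_EmKCs. Of the 18 genes of the calcineurin and 14-3-3 list, which holds the phosphatase, the adaptor proteins that keep the factors in the cytoplasm and kinases that act on them, 1 rose in each comparison and 0 fell, where 2.50, 5.64 and 8.68% of all genes were called higher (the medians were 0.20, -0.09 and 0.08, against -0.04, 0.02 and -0.01 for all genes). A count of 1 in 18 is not far from those shares. Map4k3, an amino acid-responsive kinase, rose over Chow_EmKCs by 1.28 in MCD_EmKCs (limma adjusted p = 0.0167, lost without Chow_EmKCs 3) and by 1.15 in MCD_MoKCs (adjusted p = 0.00810), and edgeR called neither. Mapk3, the kinase ERK1, rose by 0.77 in MCD_MoKCs against MCD_EmKCs (limma adjusted p = 0.0286). That call was lost without MCD_EmKCs 4, 5 or 6, or MCD_MoKCs 1, 2 or 5, and without MCD_MoKCs 1 to 3 together.

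**Figure D5:**
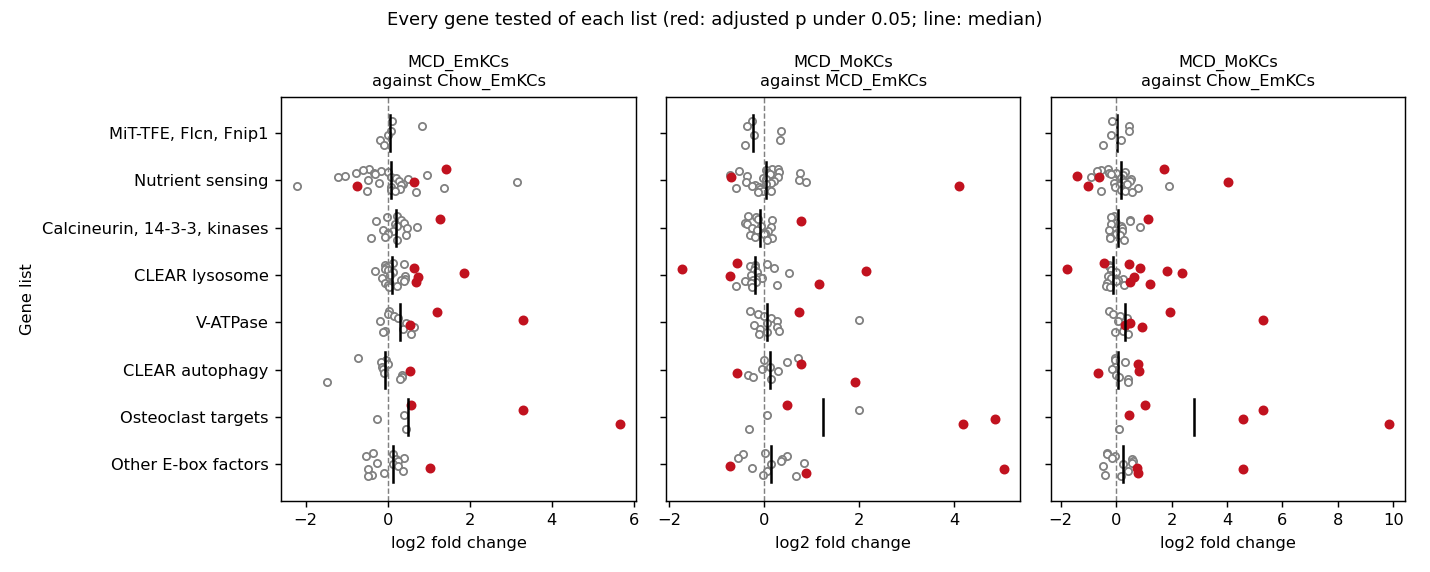
Log2 difference (horizontal axis) of every gene tested in each pathway list, in the 3 comparisons. Each dot is 1 gene, red dots had a limma adjusted p under 0.05, and the vertical line is the list's median. In MCD_MoKCs against Chow_EmKCs the Gpnmb, Ctsk and Atp6v0d2 points lay at 9.85, 4.59 and 5.29, and the median of the lysosomal list was -0.10.

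Lists of genes that the factors are known to bind were taken from general knowledge of the CLEAR network and of osteoclasts, and the CLEAR lists were partly defined by the CACGTG motif, so its frequency in them (12 of the 18 lysosomal genes with a window, 4 of 9 V-ATPase genes) is no independent finding. In MCD_EmKCs against Chow_EmKCs, 4 of 24 lysosomal genes rose and 0 fell, where 2.50 and 1.58% of all genes did (median 0.09 against -0.04 for all genes). Gla, the alpha-galactosidase, had 74.6, 280.2 and 621 normalised reads in Chow_EmKCs and 708, 794 and 2834 in MCD_EmKCs, with no overlap. It rose by 1.86 (limma adjusted p = 0.0260, lost without Chow_EmKCs 2, 3 or 4 or MCD_EmKCs 1). Gusb, the beta-glucuronidase, rose by 0.73 (limma adjusted p = 0.00104) and Naglu, which degrades heparan sulfate, by 0.69 (adjusted p = 0.0125, lost with libraries scaled to their totals). The fourth was Ctsd, the protease cathepsin D, at 0.64 (limma adjusted p = 0.00161). Within either library-number set the calls of Gla, Naglu and Ctsd were lost, and that of Gusb was lost with library numbers from 37.

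In MCD_MoKCs against Chow_EmKCs, 7 of 24 lysosomal genes rose and 2 fell, where 8.68 and 8.08% of all genes did, so the number that fell was near the share of all genes (median -0.10 against -0.01 for all genes). Gla reached 628, 1781 and 2912 normalised reads in MCD_MoKCs, and rose by 2.38 (limma adjusted p = 0.000607), and Galns, a sulfatase, rose by 1.85 (adjusted p = 0.00127). Psap, Ctsd, Gusb, Naglu and Clcn7 also rose, by 0.46 to 1.22. Clcn7 kept its call in 22 of 33 alternative settings (lost without Chow_EmKCs 2, 3 or 4 or MCD_MoKCs 2, 5, 6 or 7, and scaled to totals), and Naglu in 27 of 33 (lost without Chow_EmKCs 3 or 4 or MCD_MoKCs 4, and scaled to totals). Asah1 fell by 0.43 (limma adjusted p = 0.0486) with 10 of 33 alternative settings keeping the call. Ctsf, the cathepsin F gene, had 2800.4, 3226 and 4078 normalised reads in Chow_EmKCs, 2771, 3299 and 3803 in MCD_EmKCs and 572, 943 and 1458 in MCD_MoKCs. The monocyte-derived libraries lay below all others, and Ctsf fell by 1.78 against Chow_EmKCs (limma adjusted p = 2.18e-08) and by 1.72 against MCD_EmKCs (adjusted p = 9.33e-08), in all 33 alternative settings.

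In MCD_MoKCs against MCD_EmKCs, 2 of 24 lysosomal genes rose and 3 fell, where 5.64 and 4.90% of all genes did (median -0.19 against 0.02). Galns rose by 2.15 (limma adjusted p = 0.000445) and Psap, the saposin precursor, by 1.16 (adjusted p = 2.93e-06). Psap had 20149, 30758 and 44469 normalised reads in MCD_EmKCs and 53890, 67868 and 82809 in MCD_MoKCs, with no overlap. Asah1, the acid ceramidase, fell by 0.57 (limma adjusted p = 0.0125). That call was lost without MCD_MoKCs 1 to 3 (-0.41, limma adjusted p = 0.159) and with library numbers from 37 (-0.17, adjusted p = 0.753). Kupffer cell markers fell in the same comparison (10 of 12, among them Timd4 and Clec1b, the genes of the sort). Whether these markers share a source with Ctsf was not tested.

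V-ATPase genes, which build the pump that acidifies lysosomes, rose in 3 of 14 cases in MCD_EmKCs against Chow_EmKCs and in 5 of 14 in MCD_MoKCs against Chow_EmKCs, and 0 fell in either, where 2.50 and 8.68% of all genes rose (medians 0.31 and 0.30, against -0.04 and -0.01 for all genes). Of the 5, Atp6v1b2 (0.33, limma adjusted p = 0.0470) kept its call in 10 of 33 alternative settings and Atp6v1a (0.50, adjusted p = 0.0138) in 30 of 33. Atp6v0d2, a subunit enriched in osteoclasts and macrophages, had 5.59, 54.8 and 308 normalised reads in Chow_EmKCs, 176, 430.0 and 519 in MCD_EmKCs, and 792, 1500.3 and 2672 in MCD_MoKCs. The monocyte-derived libraries lay above all others, although the difference between the MCD groups was not called (2.00, limma adjusted p = 0.120). The rise over Chow_EmKCs was 5.29 in MCD_MoKCs (limma adjusted p = 6.25e-05) and 3.29 in MCD_EmKCs (adjusted p = 0.0253), the latter lost by edgeR, by DESeq2 and without Chow_EmKCs 2, 3 or 5 or MCD_EmKCs 1, 3 or 6. Atp6v0a1, a membrane subunit, rose by 1.20 in MCD_EmKCs and 1.93 in MCD_MoKCs over Chow_EmKCs (limma adjusted p = 0.00338 and 7.87e-07), and by 0.73 in MCD_MoKCs over MCD_EmKCs (adjusted p = 0.0441), which 18 of 33 alternative settings kept (lost without Chow_EmKCs 2, MCD_EmKCs 1, 3, 5 or 6, or MCD_MoKCs 3, 4, 5 or 7). It was the only one of the 14 called between the MCD groups, where 5.64% of all genes were called higher (median 0.06 against 0.02 for all genes). A count of 1 in 14 is not far from that share. Atp6v1b2, of the cytoplasmic sector, rose by 0.55 in MCD_EmKCs over Chow_EmKCs (limma adjusted p = 0.00583, lost with libraries scaled to their totals), and Atp6v1c1, of the same sector, by 0.92 in MCD_MoKCs over Chow_EmKCs (adjusted p = 0.000649).

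Of 12 autophagy genes, 1 rose in MCD_EmKCs against Chow_EmKCs, 2 rose and 1 fell in MCD_MoKCs against Chow_EmKCs, and 2 rose and 1 fell in MCD_MoKCs against MCD_EmKCs (medians -0.07, 0.05 and 0.13, against -0.04, -0.01 and 0.02 for all genes). The shares of all genes called higher were 2.50, 8.68 and 5.64%, and of those called lower 1.58, 8.08 and 4.90%. The 1 of 12 that fell in MCD_MoKCs against Chow_EmKCs is near the share of all genes. Sqstm1, the cargo receptor p62, rose over Chow_EmKCs by 0.55 in MCD_EmKCs (limma adjusted p = 0.0159, lost without MCD_EmKCs 4 and with libraries scaled to their totals) and by 0.84 in MCD_MoKCs (adjusted p = 2.45e-05). Gabarapl1, which coats autophagosomes, rose in MCD_MoKCs by 0.80 over Chow_EmKCs and 0.79 over MCD_EmKCs (limma adjusted p = 0.00512 and 0.00933). The call over MCD_EmKCs was lost within either library-number set, and that over Chow_EmKCs with library numbers up to 33. Uvrag, which acts in autophagosome maturation, fell in MCD_MoKCs by 0.66 against Chow_EmKCs (limma adjusted p = 0.0113, lost without MCD_MoKCs 1 to 3 together) and by 0.57 against MCD_EmKCs (adjusted p = 0.0453), and the latter call held in 15 of 33 alternative settings (among the single libraries left out, only without Chow_EmKCs 1, 3, 4 or 6, MCD_EmKCs 3, or MCD_MoKCs 4 or 6). Wipi1, a phosphoinositide-binding autophagy protein, rose by 1.91 in MCD_MoKCs over MCD_EmKCs (limma adjusted p = 0.0332). That call was lost without MCD_EmKCs 1 or 3 or MCD_MoKCs 1, 2, 3 or 5, and without MCD_MoKCs 1 to 3 together.

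The next list held genes known as Mitf and Tfe3 targets in osteoclasts and macrophages. Gpnmb, a transmembrane glycoprotein of lysosome-rich macrophages (ENSMUSG00000029816, chr6:49036546-49070929, plus strand), had 8.91, 27.9 and 45.9 normalised reads in Chow_EmKCs, 773, 1344 and 1757 in MCD_EmKCs, and 12631, 18399.9 and 46478 in MCD_MoKCs. The 3 groups were apart from each other. Gpnmb rose by 5.65 in MCD_EmKCs over Chow_EmKCs (SE 0.34, limma adjusted p = 1.88e-11), by 4.19 in MCD_MoKCs over MCD_EmKCs (SE 0.32, adjusted p = 1.32e-09) and by 9.85 in MCD_MoKCs over Chow_EmKCs (SE 0.32, adjusted p = 2.37e-17), and all 33 alternative settings kept each call. Of the 7 genes on that list 6 were tested, and 3, 3 and 5 of them rose in those comparisons, with 0 falling and medians of 0.51, 1.24 and 2.82. Among all genes 2.50, 5.64 and 8.68% rose, with medians of -0.04, 0.02 and -0.01. The lists share genes: Atp6v0d2 was also counted among the V-ATPase genes and Clcn7 among the lysosomal genes.

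Ctsk, the collagen-degrading cathepsin K of osteoclasts, had at most 46.9 normalised reads in Chow_EmKCs, at most 53.9 in MCD_EmKCs, and 61.5, 144.4 and 424 in MCD_MoKCs. It was higher in every MCD_MoKCs library than in any other. It rose by 4.59 over Chow_EmKCs (ratio of means 17.3, limma adjusted p = 0.000972) and by 4.85 over MCD_EmKCs (ratio of means 15.9, adjusted p = 0.000947). Both calls were lost with library numbers from 37 (limma adjusted p = 0.204 and 0.174). Acp5, the tartrate-resistant acid phosphatase, was abundant in all groups: it had 6091, 8331 and 10058 normalised reads in Chow_EmKCs, 11095, 11694 and 14077 in MCD_EmKCs, and 13398, 16361 and 20499 in MCD_MoKCs. It rose by 0.57 in MCD_EmKCs and by 1.04 in MCD_MoKCs over Chow_EmKCs (limma adjusted p = 0.0140 and 1.33e-06), and by 0.48 between the MCD groups (adjusted p = 0.0185, lost without MCD_MoKCs 1 to 3). With libraries scaled to their totals, the first of these was not called.

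Other basic helix-loop-helix leucine zipper factors that bind E-boxes could share sites with the MiT-TFE factors, and 15 were tested. In MCD_EmKCs against Chow_EmKCs 1 rose and 0 fell, in MCD_MoKCs against MCD_EmKCs 2 rose and 1 fell, and in MCD_MoKCs against Chow_EmKCs 3 rose and 0 fell (medians 0.12, 0.15 and 0.26, against -0.04, 0.02 and -0.01 for all genes). Among all genes 4.08, 10.5 and 16.8% were called in either direction, and with 15 genes the counts of 1, 3 and 3 are not far from those shares. Myc, a growth-promoting factor, had 855, 1140.5 and 1818 normalised reads in Chow_EmKCs, 2116, 2232 and 2748 in MCD_EmKCs, and 1064, 2001 and 3671 in MCD_MoKCs. It rose over Chow_EmKCs by 1.03 in MCD_EmKCs, without overlap (limma adjusted p = 0.00578), and by 0.77 in MCD_MoKCs (adjusted p = 0.0116). In the first of these comparisons 7 of 12 genes known to respond to tissue digestion and sorting rose too, where 2.50% of all genes did. The part of these genes in the result was not tested.

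Mycl, a Myc relative of dendritic cells, had 31 reads in all in Chow_EmKCs, 4 in MCD_EmKCs and 626 in MCD_MoKCs. All 31 came from Chow_EmKCs 3 and all 4 from MCD_EmKCs 3, with the other libraries of those groups at 0, so no fold is given. The MCD_MoKCs libraries held 3 to 310 reads. Mycl was called higher in MCD_MoKCs than in Chow_EmKCs (limma adjusted p = 0.00266, not called by edgeR or DESeq2) and than in MCD_EmKCs (adjusted p = 0.00172). Among 7 dendritic cell markers tested, 3 rose in each of these comparisons, where 8.68 and 5.64% of all genes did. All 8 dendritic cell markers summed to 2244 to 4134 in Chow_EmKCs, 1797 to 3191 in MCD_EmKCs and 2357 to 4623 in MCD_MoKCs, with the groups overlapping. The part of these markers in the Mycl result was not tested. Srebf2, the sterol-responsive factor that drives cholesterol synthesis genes, rose in MCD_MoKCs by 0.78 over Chow_EmKCs and 0.87 over MCD_EmKCs (limma adjusted p = 0.00919 and 0.00580). Both calls were lost without MCD_MoKCs 1 to 3 (adjusted p = 0.109 and 0.0952 by limma). Mxi1, a Myc antagonist, fell by 0.71 in MCD_MoKCs against MCD_EmKCs (limma adjusted p = 0.00663). That call was lost with library numbers up to 33 and with those from 37 (limma adjusted p = 0.109 and 0.253).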

How the data were processed

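RNA was sequenced from 19 sorted Kupffer cell libraries, grouped from the labels. Collagenase D digestion of the liver was followed by sorting on a FACSAria, per the labels' protocols, and RNA was extracted with a QIAGEN micro kit and amplified by Smartseq, and libraries were sequenced on an Illumina instrument. Per the submitters' processing notes, STAR, DESeq2 and the mouse build mm10 were used. Which tool and annotation gave the counts is not given in the sources used here. The authors deposited 1 table of normalised read signal for 33919 gene identifiers and 19 libraries, and all its columns were used. Within a library, 100% of the deposited values were whole multiples of 1 step within 0.001 reads, so they are reads divided by a size factor, and dividing by the step recovered the reads. Of the identifiers, 29062 matched a symbol and 4857 did not. Positions and exon lengths (the union of all annotated exons of a gene) are from GENCODE vM21.

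The main test was limma 3.58.1 (R 4.3.3; trend and robust) on log2(value + 1), for the 14875 genes that reached a value of 10 in 6 or more libraries. All libraries entered 1 model with 3 group means, each contrast two-sided, adjusted by Benjamini-Hochberg over all genes tested at 0.05. On simulated data for MCD_EmKCs against Chow_EmKCs (14875 genes), this model recovered 48% of 100 genes changed by a log2 difference of 1 and 100% of 100 changed by 2, with 6 false calls. Every simulated gene had the same dispersion around its Chow_EmKCs mean, and only these genes were changed. The spread of real genes differs, so these rates do not give the recovery to be had for any of the 6 genes. The alternatives were edgeR 4.0.16 and DESeq2 1.42.0 on the recovered reads, other pseudocounts, filters and scaling, a replicate block, each library left out, and library numbers up to 33 or from 37 only. Leaving out MCD_MoKCs 1 to 3, or Chow_EmKCs 1 with MCD_EmKCs 1, was added after the data were seen.

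The 6 genes and all lists (251 entries, 248 in the table) were chosen with earlier results of these data known. The rule named the 6 genes, Gpnmb, Rragd, Fnip2, Mcoln1 and, per list and comparison, up to 3 called genes with the largest difference. Other genes named complete a count and were added after their values were seen. A rule naming the genes most like each called member named none, since no member was called. Reads carry no molecular identifiers, so the spread between libraries was used as the error. One gene counted in a list is not reported here by name.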

Additional observations from a re-analysis of the deposited data

Results flagged for a closer look

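Among 30 groups of values (the 6 genes with Fnip2, Rragd, Mcoln1 and Gpnmb in 3 groups), 5 had 1 library that stood apart from the rest of its group by Dixon's criterion, which chance meets in about 1 of 20 groups. Tfeb had 1568 normalised reads in Chow_EmKCs 5, where the next library had 1027. Tfec had 1359.8 in Chow_EmKCs 2, where the next had 900.4. Of the remaining 3, all were in MCD_EmKCs 1: Fnip1 had 1871 (next 1242), Mcoln1 had 10289 (next 5315) and Rragd had 5.17, the lowest (next 97.7). No explanation was tested.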

How the results depend on the processing

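No setting called any of the 6 genes: the lowest adjusted p in 594 tests over 33 alternatives was 0.0566, for Fnip1 in MCD_EmKCs against Chow_EmKCs without Chow_EmKCs 4. The values below follow the order MCD_EmKCs against Chow_EmKCs, MCD_MoKCs against MCD_EmKCs and MCD_MoKCs against Chow_EmKCs, called first, second and last. Counts of called genes were 179, 870 and 1257 with library numbers up to 33, and 263, 565 and 1288 with numbers from 37 (fewer samples in each). The second was 1010 without MCD_MoKCs 1 to 3. Many of the pathway calls above were also lost in either or both of these library-number sets, which is not stated for each gene. Leaving out 1 library gave 468 to 620, 1288 to 1596 and 2193 to 2590 genes. edgeR called 554, 1325 and 2086 genes, and DESeq2 904, 1846 and 2588. Signs reversed as follows, for genes not called unless stated, and the cause was not tested. In the first comparison Tfe3 was -0.0035 by edgeR, -0.0063 by DESeq2 and -0.080 scaled to totals, where Mitf was -0.0033. With numbers up to 33, Tfe3 was 0.0091 in the second and 0.15 in the last. With numbers from 37, the first gave Mitf -0.084, Tfe3 -0.12, Tfec 0.027, Flcn -0.093 and Mcoln1 -0.34, the second Flcn 0.0084 and Mcoln1 0.49, and the last Fnip1 -0.12 and the called Asah1 0.047. Without MCD_MoKCs 1 to 3, Flcn was 0.045 in the last and Mcoln1 0.018 in the second. Without Chow_EmKCs 1 and MCD_EmKCs 1, Mitf was -0.086, Tfe3 -0.030 and Tfec 0.029 in the first. Mcoln1 in the last was -0.065 by edgeR, -0.054 by DESeq2, -0.042 scaled to totals and -0.10 with a replicate block. Leaving out 1 library gave the first comparison -0.027 to 0.28 for Mitf, -0.066 to 0.089 for Tfe3 and -0.19 to 0.040 for Tfec, and the last -0.19 to 0.24 for Mcoln1. The replicate block gave 608, 1658 and 2474 genes and changed no member's call. Same-numbered libraries correlated at -0.07 to 0.08 (median 0.018, against 0.0017 for other numbers), and 5 of 19 matched their own number best. Whether libraries of different groups came from the same animal cannot be told from these values.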
